A study of Mus musculus with 14 samples.

Results

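The genes of endoplasmic reticulum (ER) stress and ER chaperoning were followed in cultured mouse pancreatic stellate cells (PSCs) and in the livers of mice bearing pancreatic tumors. The group held 32 genes, chosen by name from a list of 16481 genes in the PSC table and 54532 in the liver table. The members were selected on names, and the list was drawn up when the PSC result of Yoda1 against DMSO was known, for Derl3 in particular, so the PSC values of these genes are given as a description. Counts of members called in the fit over all genes stand beside the share of all genes, and nothing is read from them. All 32 were listed and passed the filter on low values in both tables. By role they were 6 sensors and transcription factors, 11 lumenal and membrane chaperones, 3 protein disulfide isomerases, 7 genes of ER-associated degradation (ERAD) and 5 targets of the integrated stress response (ISR).

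PSCs of 3 preparations from mice aged 8 to 12 weeks were each cultured on Matrigel with Yoda1 at 25 μM, a chemical agonist of the mechanosensitive channel PIEZO1, or with its solvent DMSO (n = 3 libraries each), with a treatment time given as 24 hours in one place and as 72 hours in another. Whether control cells were given DMSO or left untreated is also put differently in different places, and the labels' term DMSO is used here. The livers came from mice of the same age that had received 100000 KPCY cells in the pancreatic tail 20 days before. KPCY is a mouse pancreatic cancer line, and its cells carry functional TRPV4 in every group. The WT mice (n = 2) carried floxed Piezo1 alleles (Piezo1 fl/fl), the TRPV4-KO mice (n = 3) lacked Trpv4 in the whole body, and the GSK219 mice (n = 3) were WT mice given the TRPV4 antagonist GSK2193874 at 10 mg/kg by gavage each day. Whether the WT mice were gavaged with the carrier was not given in the sources used here.

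Proteins that enter the secretory pathway fold in the ER lumen with the help of chaperones such as BiP, the product of Hspa5, and of disulfide isomerases. When unfolded proteins accumulate, the membrane sensors encoded by Ern1, Eif2ak3 and Atf6 start the unfolded protein response. Ern1 splices Xbp1 mRNA, Atf6 is released as a transcription factor, and Eif2ak3 phosphorylates the initiation factor eIF2α, which favors translation of Atf4 and then transcription of Ddit3, Trib3, Chac1 and Asns. Other kinases can also phosphorylate eIF2α, and the branch from Atf4 onward is then called the ISR. Proteins that fail to fold leave the ER by ERAD, through the derlins and the Sel1l-Syvn1 ubiquitin ligase. PSCs and their activated forms secrete large amounts of collagen, and hepatocytes secrete most plasma proteins.

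Xbp1 splicing, Atf6 cleavage and eIF2α phosphorylation do not show in gene counts, so the values below are transcript levels only.

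Promoter windows from RefSeq (GRCm38.p6, 250 bases before to 50 after the start) were found for 28 of the 32 genes, with none for Atf6, Hyou1, Manf and Derl1. These were searched on both strands for the ER stress response element, written CCAAT, any 9 bases, CCACG. The element was found in 9 of 28 members with a window, against 0.119% of all 32851 windows (39 windows, these 9 genes included). Hsp90b1 held it 2 times. The 9 of 28 counts genes and the 0.119% counts windows. The 10 matches are shown because this element is rare among promoters and recurs in the group. The members were picked by name as genes of ER stress, so nothing is read from the recurrence of such elements. Each is written from its CCAAT side, with both fixed parts in capitals.
Derl3 (chr10:75893242-75893260, minus strand): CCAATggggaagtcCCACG
Syvn1 (chr19:6046532-6046550, plus strand): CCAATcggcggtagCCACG
Hspa5 (chr2:34772025-34772043, plus strand): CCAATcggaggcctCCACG
Canx (chr11:50325800-50325818, minus strand): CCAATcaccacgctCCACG
Creld2 (chr15:88819520-88819538, minus strand): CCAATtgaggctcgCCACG
Calr (chr8:84847075-84847093, plus strand): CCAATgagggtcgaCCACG
Hsp90b1 (chr10:86705638-86705656, minus strand): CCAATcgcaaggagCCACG
Hsp90b1 (chr10:86705533-86705551, plus strand): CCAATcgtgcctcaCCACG
Pdia6 (chr12:17266491-17266509, plus strand): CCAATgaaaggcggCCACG
Dnajc3 (chr14:118937827-118937845, plus strand): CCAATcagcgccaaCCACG

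The matches of Derl3, Creld2 and Calr, and 1 of the 2 in Hsp90b1, run against the direction of the gene. They lie between 212 and 26 bases before the start. A shorter form, element II (ATTGG, any base, CCACG), was found in 2 of 28 members and in 0.0365% of all windows. It does not overlap the first form in these genes.
Herpud1 (chr8:94386377-94386387, plus strand): ATTGGgCCACG
Dnajb11 (chr16:22857852-22857862, plus strand): ATTGGcCCACG

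Atf4 binds a composite element, of which the core TGATG, any base, AA was searched. It was found in the windows of Asns, Chac1, Herpud1 and Trib3, that is in 4 of 28 members, against 3.97% of all windows. Of the parts, CCACG was found in 23 of 28 members and in 32.8% of all windows, and CCAAT in 23 of 28 and in 37.4%. The first element contains both parts, so these counts are not independent of it. A match is a string of letters, and binding was not measured.

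The 250 bases before the start are shown for the 4 members with a match there and the largest log2 fold change with Yoda1 in either direction, because 2 of them were higher and called, 1 lower and called, and 1 higher without a call. Capitals mark every CCAAT and CCACG on either strand, and the whole of the first element.
Derl3 (chr10:75893148-75893397, plus strand): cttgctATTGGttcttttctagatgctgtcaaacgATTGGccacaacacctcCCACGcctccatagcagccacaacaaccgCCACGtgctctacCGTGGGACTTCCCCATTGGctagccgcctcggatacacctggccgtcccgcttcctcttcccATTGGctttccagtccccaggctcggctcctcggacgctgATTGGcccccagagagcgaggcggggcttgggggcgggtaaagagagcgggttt
Ddit3 (chr10:127290543-127290792, plus strand): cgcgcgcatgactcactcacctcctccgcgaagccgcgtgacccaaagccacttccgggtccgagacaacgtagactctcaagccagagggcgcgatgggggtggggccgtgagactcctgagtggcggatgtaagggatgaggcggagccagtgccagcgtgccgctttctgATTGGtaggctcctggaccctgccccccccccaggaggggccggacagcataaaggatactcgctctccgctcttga
Dnajb9 (chr12:44210069-44210318, minus strand): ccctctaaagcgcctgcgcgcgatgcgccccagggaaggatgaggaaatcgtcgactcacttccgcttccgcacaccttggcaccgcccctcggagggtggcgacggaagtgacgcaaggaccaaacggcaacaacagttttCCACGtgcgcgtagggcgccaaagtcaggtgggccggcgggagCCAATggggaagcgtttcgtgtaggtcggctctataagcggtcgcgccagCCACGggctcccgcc
Dnajc3 (chr14:118937682-118937931, plus strand): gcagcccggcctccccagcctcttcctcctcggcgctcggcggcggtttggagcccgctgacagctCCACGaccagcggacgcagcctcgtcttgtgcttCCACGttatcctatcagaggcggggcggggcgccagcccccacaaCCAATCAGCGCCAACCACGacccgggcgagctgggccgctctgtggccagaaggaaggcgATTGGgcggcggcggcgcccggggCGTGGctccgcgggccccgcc

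Derl3 and Dnajc3 each hold 1 complete element, and their transcripts differed in opposite directions with Yoda1. Dnajb9 holds 2 CCACG and 1 CCAAT at other spacings. In Ddit3 a single CCAAT was found. Among the 9 members with the element, 3 were higher and 6 lower with Yoda1, with a median log2 fold change of -0.06 and a range from -0.42 to 3.39. Among the 19 members with a window and no element, 13 were higher and 6 lower, with a median of 0.04. These directions are those of the fit. Scaled by read total alone, mean levels of Canx and Creld2, with the element, were higher with Yoda1. So were those of Pdia4, Dnajb11 and Eif2ak3, without it.

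Read totals ranged from 27312894 to 39070539 per PSC library and from 15567031 to 17395299 per liver. PSC values are normalized read counts, that is, gene counts that the authors scaled by 1 factor in each library. The scaled totals are not equal and are lower with Yoda1 in each preparation, so the values are not shares of a library. Markers of stellate cells and fibroblasts were abundant in every PSC library (Col1a1 from 213908 to 463416), although Gfap was not in the table, and the summed level of that list was 817623 to 911834 with DMSO and 408743 to 521665 with Yoda1. Markers of ductal and tumor epithelium were also present, with sums of 58746 to 75781 in preparations 1 and 2, and 105193 (DMSO) and 132238 (Yoda1) in preparation 3. Pancreatic acinar markers summed to 1120 and 1361 in preparation 1, 3906 and 4758 in preparation 2, and 6690 and 13097 in preparation 3, DMSO first. Preparation 3 therefore stood apart. In bulk libraries, fewer cells of a type and less RNA per cell cannot be told apart.

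Piezo1, the target of Yoda1, had a normalized read count of 14295 to 16698 with DMSO and 13819 to 16018 with Yoda1. Trpv4 was at 301 to 376 and at 365 to 576.

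Levels per gene length were compared first. In PSCs with DMSO the group spanned a wide range, from Calr, Hspa5, Hsp90b1 and Pdia3 at 471, 359, 334 and 319 RPKM (reads per kilobase of gene and library size) to Derl2 and Derl3 at 6.67 and 0.0873. Calr encodes calreticulin, a calcium-binding lectin chaperone, and Hsp90b1 the lumenal Hsp90 protein GRP94. Between neighbors in this order the ranges of the 3 DMSO libraries overlapped for 19 of 31 pairs. In the livers Calr and Hspa5 also led, at means over 8 livers of 233 and 172, and the lowest were Asns at 3.29 and Derl3 at 2.46, an order that WT replicate 2 sets (without it Asns was at 1.02 and Derl3 at 2.59). Here the ranges of neighbors overlapped for 30 of 31 pairs.

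The tables were normalized separately, so levels in PSCs and liver were not tested against each other. Side by side, 22 of the 32 members were lower in liver. These include all 5 targets of the ISR, with PSC levels 3.40 to 27.8 times those in liver. No share over all genes stands beside the 22, and nothing about the group is read from that count. Asns, which makes asparagine, was at 91.5 RPKM in PSCs with DMSO and at 3.29 in liver. That liver mean rests on WT replicate 2, and over the other 7 livers it was 1.02, so that the PSC level was 89.9 times it. Trib3 was at 33.7 and 4.31, Chac1 at 20.9 and 4.47, and Sesn2 at 20.5 and 4.11. Ddit3 and Atf4 were at 5.58 and 4.01 times their liver levels. The other 10 members were higher in liver, among them Herpud1, a membrane component of ERAD, at 39.5 in PSCs and 169 in liver, and Xbp1, at 50.4 and 88.6.

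**Figure D1:**
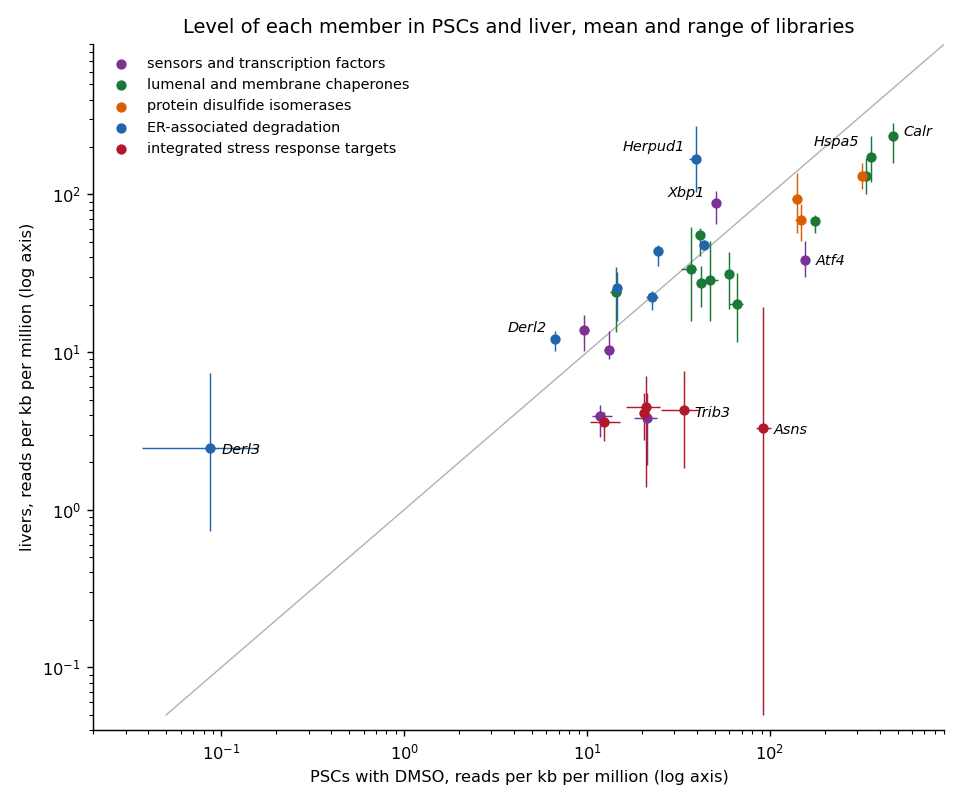
Level of each of the 32 genes in RPKM, in PSCs with DMSO (x axis, log scale, mean of 3 libraries) and in liver (y axis, log scale, mean of 8 livers), colored by role. Thin lines span the lowest to the highest library (a liver without Asns reads is drawn at the lower end of its line), and the diagonal marks equal values. Asns lies far below the diagonal (91.5 against 3.29) and Herpud1 above it (39.5 against 169).

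With Yoda1, Derl3 stood out from the other 31 genes. Derl3 (chr10:75893413-75895941, plus strand, GRCm38) encodes a derlin, a membrane protein of the channel through which ERAD substrates leave the ER, and it is known to be expressed mostly in secretory cells such as those of the pancreatic acinus. Its normalized read counts were 2.49, 4.49 and 11.1 with DMSO and 55.5, 51.8 and 89.0 with Yoda1. Every Yoda1 library was thus above every DMSO library, from a base of 2, 4 and 11 reads. The ratio of Yoda1 to DMSO was 22.3 in preparation 1 (95% exact binomial interval 5.89 to 188), 11.6 in preparation 2 (4.30 to 43.7) and 8.02 in preparation 3 (4.31 to 16.5). These intervals cover counting error only. The log2 fold change of the fit, on the scale of log2(value + 1), was 3.39 ± 0.49 (SE), and the next largest of a member was 0.55.

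Acinar cells carry Derl3, so their marker sums are set beside it. With DMSO, Derl3 was 2.49, 4.49 and 11.1 at acinar sums of 1120, 3906 and 6690 (8 of the 10 markers were in the table). Within preparation 1 the acinar sum was 1120 with DMSO and 1361 with Yoda1, while Derl3 was 2.49 and 55.5. In preparation 2 the sum was 3906 and 4758 and Derl3 4.49 and 51.8, and in preparation 3 the sum was 6690 and 13097 and Derl3 11.1 and 89.0. Most of each sum was Ctrb1, at 724 and 967 in preparation 1 and 2708 and 3604 in preparation 2, while the other 7 markers summed to 395 and 394 and to 1198 and 1154. With Yoda1, 5 of the 8 markers were higher in preparation 1 and 4 in preparation 2, with Ctrb1, Cpa1 and Prss2 higher in both and Cela2a and Pnlip lower in both. In preparation 3 all 8 markers were higher with Yoda1. The part of acinar cells in the Derl3 difference was not tested. Plasma cells also carry Derl3. Of their 8 markers 3 were in the table, and these summed to 4173 to 6102, nearly all of it Sdc1 at 4172 to 6093, which epithelial cells express too. Cd79a was at 0 to 4.04 and Igj (J chain) at 0 to 24.2, highest in DMSO preparation 3. The part of plasma cells was not tested.

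Of the 32 members, 2 were called higher with Yoda1 (Derl3 and Dnajb9), where 2.19% of the 15145 genes tested were called higher, and 2 were called lower (Dnajc3 and Edem1), where 2.47% were called lower. A call is a Benjamini-Hochberg adjusted p under 0.05 in limma's moderated test over all genes. Since the list was made with this contrast in view, nothing is read from these counts. All 4 calls were lost when DMSO replicate 1, DMSO replicate 2 or Yoda1 replicate 2 was left out. Calls over all genes fell as well, from 331 higher and 374 lower to 68 and 69, 17 and 22, and 15 and 22. Nothing about these 4 genes in particular is therefore read from the loss. The median log2 fold change of the members was 0.03, against -0.01 for all genes, and 18 were above 0. Values of 30 members lay within 0.5 on the log2 scale of 0.

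The samples are paired by preparation. With the preparation as a replicate block, 5 members were called higher (Atf6, Sel1l and Ppp1r15a in addition), where 8.68% of all genes were, and 4 lower (Hsp90b1 and Pdia6 in addition), where 9.55% were. DESeq2 on the recovered reads called 4 higher (Atf6, Ddit3, Derl3 and Dnajb9), where 4.80% of all genes were, and 2 lower (Dnajc3 and Edem1), where 4.76% were. Of the 32 members, 10 were higher in all 3 preparations and 9 were lower in all 3, and for all genes these shares were 27.2% and 29.4%. Treatments did not overlap for 9 members that were higher and 7 that were lower with Yoda1. The shares of all genes were 14.9% and 15.1%.

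**Figure D2:**
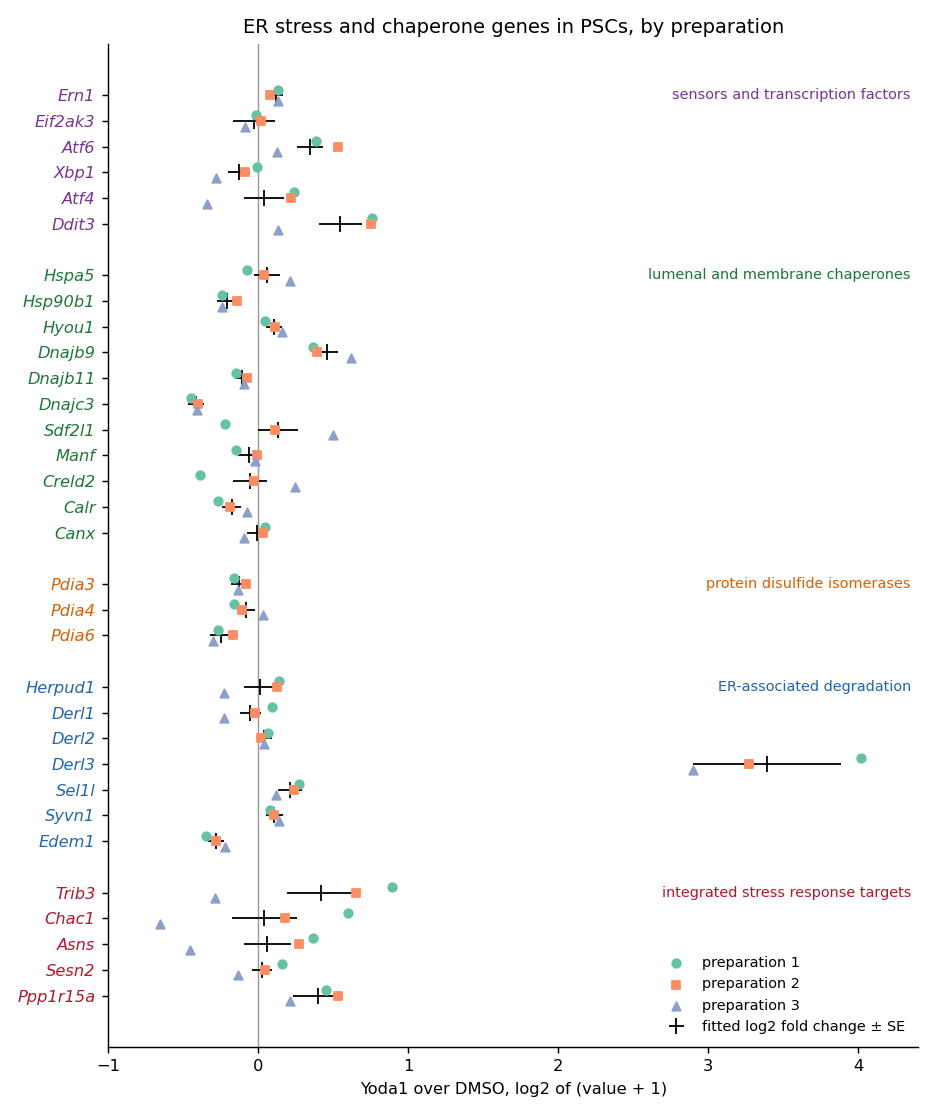
Log2 ratio of Yoda1 over DMSO (x axis, normalized read count plus 1) for the 32 genes, grouped and colored by role. Circles, squares and triangles are preparations 1, 2 and 3, and the black bar is the fitted log2 fold change with its SE. Derl3 lies between 2.89 and 4.02, and for Trib3, Chac1, Asns and Sesn2 the triangle of preparation 3 is left of 0 and the other 2 symbols are right of it.

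Among the sensors and transcription factors, Ddit3 and Atf6 had the largest differences. Ddit3 encodes CHOP, a transcription factor tied to cell death after prolonged stress. It measured 1056, 1242 and 1442 with DMSO and 1788, 2089 and 1577 with Yoda1, a log2 fold change of 0.55 ± 0.14. The treatments did not overlap, but the log2 ratio was 0.76 and 0.75 in preparations 1 and 2 and 0.13 in preparation 3. Atf6 measured 4311, 3874 and 4380 with DMSO and 5633, 5602 and 4767 with Yoda1, a log2 fold change of 0.35 ± 0.09. Here too preparation 3 had the smallest ratio. Atf4 measured 12028, 12411 and 13141 with DMSO and 14205, 14449 and 10358 with Yoda1. It was higher with Yoda1 in preparations 1 and 2 and lower in preparation 3. Ern1 had a log2 fold change of 0.12 ± 0.05, Eif2ak3 of -0.03 ± 0.14 and Xbp1 of -0.13 ± 0.07. The log2 ratios of Xbp1 were -0.01, -0.09 and -0.28 in preparations 1, 2 and 3.

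The abundant chaperones differed by small amounts and in both directions. Hspa5, the usual marker transcript of the unfolded protein response, measured 51750, 51782 and 52770 with DMSO and 49162, 53145 and 61150 with Yoda1. The treatments overlapped, and the log2 fold change was 0.06 ± 0.09. Hsp90b1 was lower in every Yoda1 library, at 39914, 42427 and 37799 against 47123, 46784 and 44719. Calr was lower as well, at 38945, 40948 and 43889 against 46847, 46550 and 46252. Their log2 fold changes were -0.21 ± 0.06 and -0.18 ± 0.06. All 3 disulfide isomerases had values below 0, with Pdia6 at -0.25 ± 0.07, Pdia3 at -0.13 ± 0.06 and Pdia4 at -0.08 ± 0.06. By read total, the mean of Pdia4 was 141 RPKM with DMSO and 145 with Yoda1, so its sign depends on the scaling.

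Of the cochaperones, which are J proteins that drive BiP, Dnajb9 and Dnajc3 differed in opposite directions. Dnajb9, also a repressor of Ern1, measured 1248, 1334 and 1191 with DMSO and 1605, 1750 and 1827 with Yoda1, a log2 fold change of 0.46 ± 0.07. Dnajc3, known as p58IPK and an inhibitor of eIF2α kinases, measured 7308, 7519 and 7088 with DMSO and 5366, 5687 and 5352 with Yoda1, a log2 fold change of -0.42 ± 0.05. In neither did the treatments overlap, and the ratios of Dnajc3 in the 3 preparations ranged only from -0.45 to -0.40. Dnajb11, another J protein, was at -0.11 ± 0.05. Hyou1, a large lumenal Hsp70 relative, was at 0.10 ± 0.05, and Canx and Manf at -0.01 ± 0.06 and -0.06 ± 0.07.

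Sdf2l1 and Creld2, small lumenal proteins that are sensitive targets of the unfolded protein response, differed between preparations. The log2 ratio of Sdf2l1 was -0.22, 0.11 and 0.50 in preparations 1, 2 and 3, and that of Creld2 was -0.39, -0.03 and 0.25. Hspa5 followed the same order, with -0.07, 0.04 and 0.21.

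In ERAD, Edem1, a mannosidase-like protein that delivers glycoproteins for degradation, measured 5425, 5530 and 5185 with DMSO and 4260, 4554 and 4453 with Yoda1, a log2 fold change of -0.28 ± 0.05. The treatments did not overlap. Sel1l, the adaptor of the ubiquitin ligase, was higher in each Yoda1 library, at 7412, 7578 and 7953 against 6135, 6410 and 7331, and its partner Syvn1 had a log2 fold change of 0.11 ± 0.06. The other derlins, Derl1 and Derl2, were at -0.05 ± 0.07 and 0.04 ± 0.05. Herpud1 was at 0.01 ± 0.10. In preparations 1, 2 and 3 the log2 ratio of Herpud1 was 0.14, 0.12 and -0.23 and that of Derl1 was 0.09, -0.02 and -0.23.

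**Figure D3:**
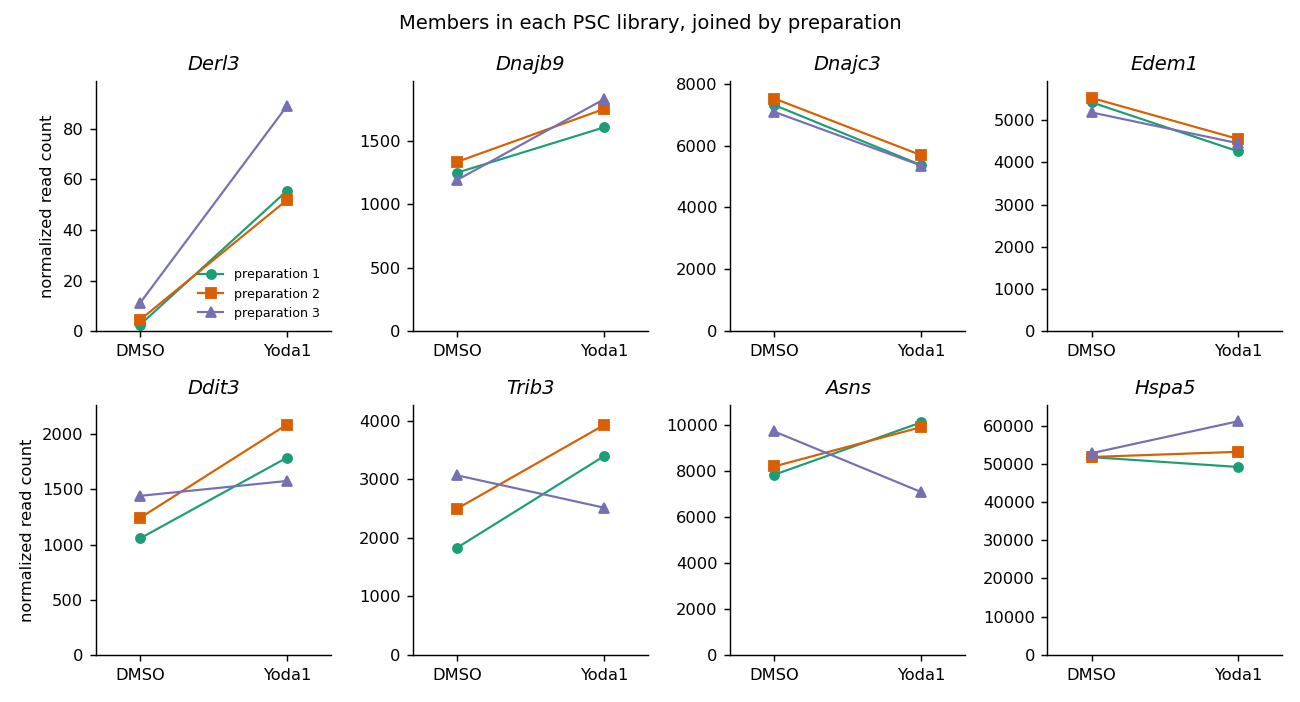
Normalized read counts (y axis, linear from 0) of 8 members in each PSC library, with lines joining the DMSO and Yoda1 libraries of a preparation. Derl3 and Dnajb9 go up and Dnajc3 and Edem1 go down in all 3 preparations, whereas Trib3 and Asns go up in preparations 1 and 2 and down in preparation 3.

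The targets of the ISR split by preparation. Trib3, a pseudokinase that Ddit3 and Atf4 induce, measured 1833, 2500 and 3070 with DMSO and 3398, 3930 and 2517 with Yoda1. Asns measured 7854, 8218 and 9738 with DMSO and 10136, 9929 and 7099 with Yoda1. Chac1, which degrades glutathione, measured 914, 1192 and 1431 with DMSO and 1382, 1347 and 911 with Yoda1. In all 3 of these genes Yoda1 was above DMSO in preparations 1 and 2 and below it in preparation 3, so the treatments overlapped and the fitted log2 fold changes were 0.42 ± 0.23, 0.06 ± 0.16 and 0.04 ± 0.22.

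Sesn2 had the same signs at a smaller size, with log2 ratios of 0.16, 0.05 and -0.13. Ppp1r15a, which encodes GADD34, the subunit that returns eIF2α to its unphosphorylated state, was higher in all 3 preparations, at 0.45, 0.53 and 0.21. Over the 5 genes the median log2 ratio was 0.45, 0.27 and -0.29 in preparations 1, 2 and 3, and 5, 5 and 1 of them were above 0. For all genes the medians were -0.01, 0.00 and -0.01.

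The same signs were counted in 37 other genes of the ISR, a list of transcription factors, amino acid synthesis and transport genes and tRNA synthetases that holds no member. Of these, 22 were above 0 in preparations 1 and 2 and below 0 in preparation 3, as were 9.40% of all 15145 genes. Another 7 were above 0 in all 3 preparations (Cebpb, Ddit4, Gdf15, Slc7a11, Wars, Eif2ak1 and Eif2ak2), 4 were below 0 in all 3, 3 were above 0 in preparation 1 alone, and Atf3 was above 0 in preparation 3 alone. The numbers above 0 were 32, 29 and 8 in preparations 1, 2 and 3, where 48.6%, 49.5% and 48.7% of all genes were, with medians of 0.26, 0.14 and -0.33. In the fit of all 3 preparations only Cebpb was called higher, a transcription factor of acute responses, with 4968, 4938 and 3944 with DMSO and 7574, 7740 and 6892 with Yoda1 (log2 fold change 0.69 ± 0.10, adjusted p = 0.021), and none was called lower. Without preparation 3, 17 of the 37 were called higher and 1 lower, where 9.70% and 10.9% of all genes were called. Cth, the last enzyme of cysteine synthesis, and Stc2, a secreted glycoprotein, were picked out after their values were seen, as the genes with the highest ratios in preparation 1. Cth had log2 ratios of 1.29, 1.16 and -0.32, and Stc2 of 1.08, 1.11 and -0.47.

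Among the members, 7 were called higher without preparation 3 (Asns, Atf4, Atf6, Ddit3, Dnajb9, Ppp1r15a and Sel1l), where 9.70% of all genes were, and 5 lower (Calr, Dnajc3, Edem1, Hsp90b1 and Pdia6), where 10.9% were. Derl3 had too few libraries above the filter to be tested there. Preparation 3 also had the highest sums of epithelial and acinar markers, and in its Yoda1 library they were higher than in its DMSO library. The part of these cells in the split was not tested.

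Other gene lists of the secretory pathway were counted in the same fit, where 2.19% of all genes were called higher and 2.47% lower. Of 28 other ER folding enzymes, 0 were called higher and 3 lower: Fkbp14 (log2 fold change -0.41 ± 0.06, adjusted p = 0.016), Uggt1 (-0.34 ± 0.05, adjusted p = 0.025) and Fkbp10 (-0.51 ± 0.11, adjusted p = 0.0499). Fkbp10 and Fkbp14 are prolyl isomerases that act on collagen, and Uggt1 is the glucosyltransferase that marks misfolded glycoproteins. Of 24 genes of ER to Golgi transport, 0 were called higher and 2 lower, the collagen-related transcription factor Creb3l1 (-0.78 ± 0.10, adjusted p = 0.014) and the coat protein Sec13 (-0.25 ± 0.05, adjusted p = 0.033). Of 22 genes of the translocon, signal peptidase and N-glycosylation, 0 were called higher and 1 lower, Ssr2 (-0.27 ± 0.05, adjusted p = 0.035). Medians of these 3 lists were -0.13, -0.15 and -0.11.

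Of these called genes Creb3l1 had the largest log2 fold change, at 8869, 9129 and 8368 with DMSO and 5585, 5378 and 4436 with Yoda1. Over the same libraries the summed level of the stellate cell and fibroblast markers was lower with Yoda1, as were Col1a1, Col1a2, Acta2, Vim, Pdgfrb and Dcn in each preparation. Pdgfra was higher in all 3, at 3874, 3819 and 2803 with DMSO and 7428, 6880 and 4956 with Yoda1, Des was higher in all 3 by less, and Rgs5 was higher in 2 of 3. The part of this in the lists was not tested. No gene was called in 24 other ERAD genes (6 with an unadjusted p under 0.05), 20 cytosolic heat shock genes (4) or 10 mitochondrial chaperones and proteases (2). At that level 1700 of all 15145 genes were higher and 1735 lower in limma's test, so nothing is read from these counts. With DESeq2 on the recovered reads, at the shares of all genes given above, 1, 1 and 2 genes of these 3 lists were called. Their medians were -0.01, -0.02 and 0.07. With the replicate block, where 8.68% of all genes were called higher and 9.55% lower, the calls, higher first, were 2 and 7 in other folding enzymes, 0 and 7 in ER to Golgi transport, 0 and 2 in the translocon list, 3 and 0 in other ERAD, 0 and 4 in heat shock genes, 0 and 2 in the mitochondrial list and 3 and 1 in other ISR genes.

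In the livers, Trpv4 was at 43 and 53 counts in WT, 15, 5 and 23 in TRPV4-KO, and 20, 30 and 36 in GSK219. TRPV4-KO was below WT in each liver, with reads remaining. The hepatocyte marker list was abundant in all 8 livers, with the lowest sums in both WT livers (69181 and 58398 CPM, against 76556 to 98632 in the other 6). Most of each sum was Alb, at 44375 and 31636 CPM in WT and 51442 to 74029 in the other 6. None of the other hepatocyte markers was lowest in both WT livers. Stellate cell and fibroblast markers (455 and 350 CPM, against 133 to 309) and endothelial markers (422 and 384 CPM, against 240 to 374) were highest in WT. The 10 acinar markers summed to 7.86 to 25.3 CPM. Nearly all of that was Cela1, at 6.62 to 24.4, and Cela2a, at 0.64 to 1.69, while Amy2a5 and Ptf1a had no reads. Xist, which is expressed from the inactive X chromosome, had 13681 to 15754 counts in 3 livers, 1 per group (replicate 1 of WT and replicate 3 of TRPV4-KO and of GSK219), and 0 to 7 in the other 5. The 3 are called livers with high Xist here, at a limit of 1000 counts. Values below are CPM, counts scaled by library size with TMM factors.

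None of the 32 members was called between WT and TRPV4-KO by edgeR's quasi-likelihood test over 15118 genes, where 0.165% of genes were called higher and 0.126% lower in WT. At an unadjusted p under 0.05, 3 members were higher in WT (Sdf2l1, Pdia4 and Asns) and 1 was lower (Herpud1), and of the 15118 genes 1436 were higher and 1150 lower at that level. DESeq2 called none of the members, where 1.71% of all genes were called higher and 1.19% lower. The median log2 fold change of WT over TRPV4-KO was 0.15, against -0.01 for all genes, and 21 of 32 members were above 0. Groups did not overlap for 5 members that were higher in WT and for 1 that was lower, and for all genes these shares were 17.7% and 15.5%.

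**Figure D4:**
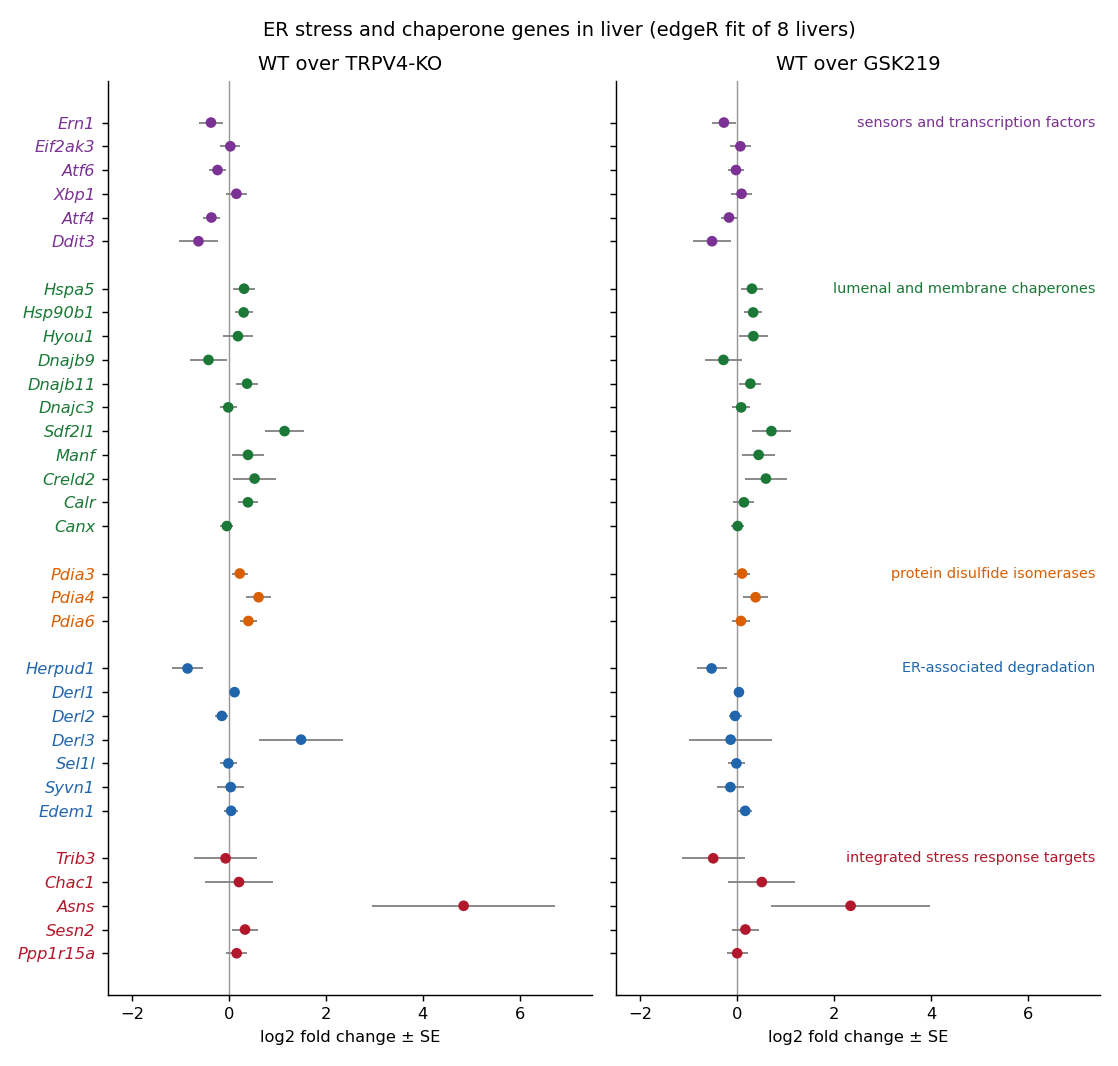
Log2 fold change with its SE (x axis, edgeR fit of all 8 livers) of the 32 genes, for WT over TRPV4-KO at left and WT over GSK219 at right, colored by role. Most SEs are under 0.5, Asns has the widest (1.89 and 1.65), and none of the values passed the adjusted threshold.

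Of the 11 chaperones 8 had log2 fold changes of WT over TRPV4-KO above 0, with a median of 0.31, as had all 3 disulfide isomerases, and none of the 14 was called. Groups were apart for 3 of them, Sdf2l1, Dnajb11 and Pdia6. Sdf2l1 was at 68.7 and 45.8 CPM in WT and at 17.5, 19.8 and 40.5 in TRPV4-KO, with the groups apart (log2 fold change 1.14 ± 0.40, adjusted p = 0.22). Pdia4 was at 327 and 243 CPM in WT and at 136, 180 and 247 in TRPV4-KO, where replicate 3 exceeded 1 WT liver (0.61 ± 0.25, adjusted p = 0.27). Pdia6 was at 306 and 273 CPM against 189, 214 and 258 (0.40 ± 0.18, adjusted p = 0.30). Hspa5 overlapped between the groups, at 994 and 702 CPM in WT and 661, 769 and 627 in TRPV4-KO (0.31 ± 0.23, adjusted p = 0.55). The WT livers also had the lowest hepatocyte sums, which were mostly Alb, and the highest stellate and endothelial sums. The part of these cells in the differences was not tested.

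Herpud1 had the opposite sign. It was at 242 and 293 CPM in WT and at 634, 543 and 280 in TRPV4-KO, so that replicates 1 and 2 of TRPV4-KO were high and replicate 3 was within the WT range (log2 fold change -0.86 ± 0.31, adjusted p = 0.22). Atf4 and Ddit3 also had negative values, at -0.37 ± 0.17 and -0.64 ± 0.40 (adjusted p = 0.32 and 0.46). Of the 6 sensors and transcription factors 4 were below 0.

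TRPV4-KO replicate 3 decided these calls. Without it, Sdf2l1 (log2 fold change 1.62, adjusted p = 0.033) and Pdia4 (0.86, adjusted p = 0.049) were called higher in WT and Herpud1 (-1.13, adjusted p = 0.019) lower, where 5.02% of all genes were called higher and 3.62% lower. This liver also had the highest macrophage sum of its group, 706 CPM against 502 and 340, where WT had 1312 and 1143, and a neutrophil sum of 6.8 CPM against 1.2 and 2.5, where WT had 60.7 and 72.8. It is the TRPV4-KO liver with high Xist. The part of each in these differences was not tested.

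Derl3 in liver was low and uneven, at 9.28 and 3.03 CPM in WT, 1.45, 2.40 and 2.72 in TRPV4-KO, and 14.7, 4.11 and 1.55 in GSK219. WT did not overlap TRPV4-KO, at a log2 fold change of 1.48 ± 0.87 (adjusted p = 0.43) that was 0.48 ± 1.09 without WT replicate 1, and the GSK219 livers overlapped both groups. The 8 markers of plasma and B cells summed to 277 to 660 CPM, nearly all of it Sdc1 at 264 to 642, which hepatocytes express too. Mzb1 was at 0.58 to 1.18 CPM and Igj at 1.68 to 17.2, highest in WT replicate 1.

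Asns was the most uneven member. WT replicate 2 had 900 counts (52.5 CPM) and WT replicate 1 had 14 (0.866). TRPV4-KO livers had 21, 23 and 0 counts, and 0 counts allow up to 0.174 CPM in that library. GSK219 livers had 114, 135 and 8 counts. The log2 fold change of WT over TRPV4-KO was 4.84 ± 1.89 (adjusted p = 0.27), and it rested on WT replicate 2, without which it was -0.09 ± 1.91.

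Asns was at 0 to 0.866 CPM in the 3 livers with high Xist and at 1.33 to 52.5 CPM in the other 5. Among the 5 it was 52.5 in the WT liver, 1.33 and 1.49 in TRPV4-KO and 7.17 and 8.16 in GSK219. With a term for high Xist in the fit, Asns was called higher in WT than in TRPV4-KO (log2 fold change 5.07 ± 0.37, adjusted p = 0.0015) and lower in TRPV4-KO than in GSK219 (-2.59 ± 0.36, adjusted p = 0.032). The first of these rests on the single WT liver without high Xist. No other member was called under that term, where 2.30% of all genes were called higher and 1.24% lower in WT than in TRPV4-KO, and 0.165% and 0.132% in TRPV4-KO than in GSK219.

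**Figure D5:**
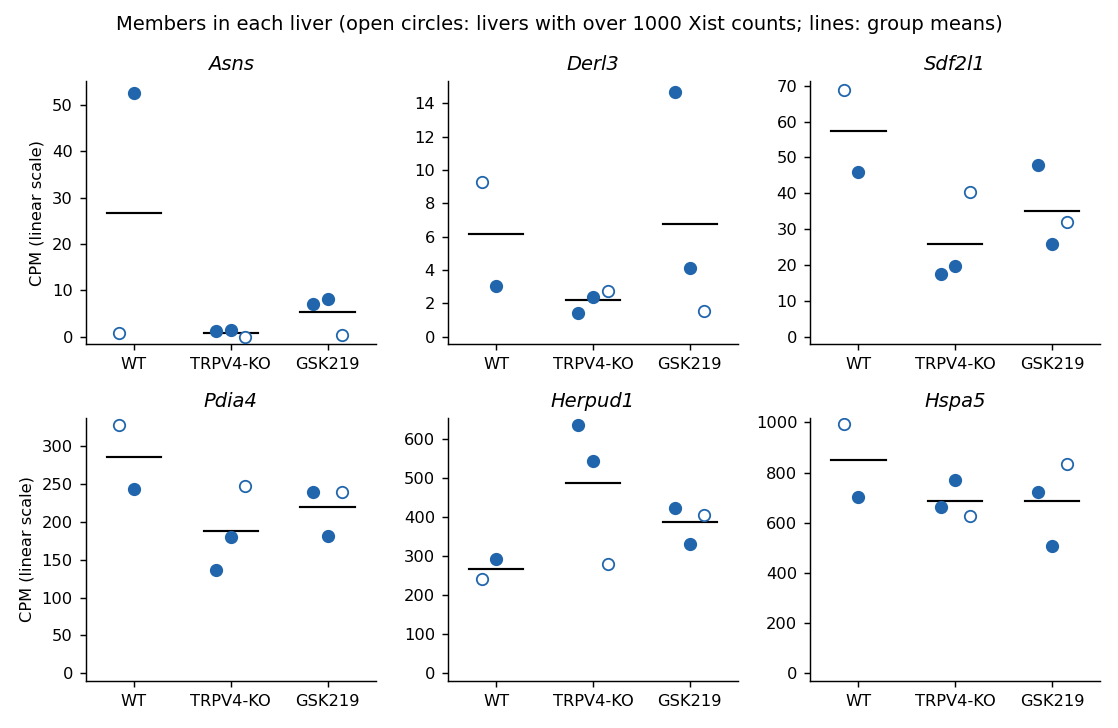
CPM (y axis, linear) of 6 members in each liver by group, with group means as lines and livers with over 1000 Xist counts as open circles. In Asns 1 WT liver at 52.5 CPM sets the group mean, in Herpud1 replicates 1 and 2 of TRPV4-KO are above all other livers, and in Hspa5 the groups overlap.

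Between WT and GSK219 livers edgeR called no member, and no other gene either (0% higher and 0% lower of 15118, with 888 higher and 354 lower at an unadjusted p under 0.05). No member had an unadjusted p under 0.05 there. DESeq2 called none of the members, where it called 0.300% of all genes higher and 0.111% lower in WT. The median log2 fold change of the members was 0.08, and 10 of 11 chaperones were above 0, from Sdf2l1 at 0.70 ± 0.40 (adjusted p = 0.72) to Canx at 0.01 ± 0.14, with Dnajb9 at -0.29 ± 0.39. Macrophage sums were 1312 and 1143 CPM in WT and 357, 636 and 852 in GSK219, and neutrophil sums 60.7 and 72.8 against 2.5, 5.3 and 6.0. The part of these cells in the WT and GSK219 values was not tested. Herpud1 was lower in WT than in every GSK219 liver, which were at 423, 330 and 406 CPM (-0.53 ± 0.31, adjusted p = 0.73). This comparison shares its WT livers with the one before, so like signs in the 2 are not independent.

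Between TRPV4-KO and GSK219 no member was called by edgeR, where 0.0595% of genes were called higher and 0.0463% lower in TRPV4-KO, and none had an unadjusted p under 0.05. DESeq2 also called no member, where it called 0.218% and 0.200% of all genes. The median was 0.01, with 16 of 32 above 0. The largest values were those of Asns and Derl3, at -2.50 ± 1.77 and -1.62 ± 0.80 (adjusted p = 0.95 and 0.88). That of Derl3 rested on GSK219 replicate 1, without which it was -0.37 ± 0.60.

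The other lists gave no call in any liver comparison by edgeR without a replicate block. With a block, where 2.61% of all genes were called higher and 0.906% lower in WT than in TRPV4-KO, 1 other folding enzyme and 2 other ISR genes were called higher. DESeq2, which called 1.71% of all genes higher and 1.19% lower in WT than in TRPV4-KO, called 1 gene of ER to Golgi transport and 1 other ISR gene higher, and 1 gene of ER to Golgi transport, 1 heat shock gene and 3 mitochondrial genes lower. Of the cytosolic heat shock genes 18 of 20 were below 0 for WT over TRPV4-KO, with a median of -0.42, and 1 had an unadjusted p under 0.05. Mitochondrial chaperones and proteases had a median of -0.29, with 9 of 10 below 0 and 5 at an unadjusted p under 0.05. For other ER folding enzymes, other ERAD, the translocon list, ER to Golgi transport and other ISR genes the medians were 0.03, -0.07, 0.12, -0.03 and 0.12.

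Exons of 11 members overlap those of another annotated gene (GENCODE vM21), by up to 270 bases for Hsp90b1, and reads there could be counted for either gene. Derl3, Dnajc3, Edem1, Asns, Herpud1 and Sdf2l1 have no such overlap.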

How the data were processed

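RNA-seq was analysed from 8 livers and 6 PSC libraries, grouped by their titles. Reads were trimmed with Trim Galore and aligned with HISAT2 2.0.5 per the submitters' processing notes, and the counting tool was not given in the sources used here. For livers the authors deposited raw read counts per gene with GRCm38 positions, and 7 columns that matched no sample were not used. The PSC table that the authors deposited holds a normalized signal, which proved to be gene counts scaled by 1 factor in each library: all 98886 values were whole multiples of the step of 1 read within a tolerance of 0.01. The log2 fold changes, their errors and test scores, and the p-values that the authors deposited with the PSC table are their own comparison and were not used.

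PSC values were tested with limma 3.58.1 (trend, robust) on log2(value + 1) for genes that reached 10 in 3 or more libraries. This fit had no term for the preparation, so the SEs given for PSCs leave out the pairing. With the replicate block, SEs were smaller for some members (Derl3 0.30 against 0.49, Eif2ak3 0.05 against 0.14). They were larger for others (Chac1 0.24 against 0.22). Liver counts were tested with edgeR 4.0.16 (quasi-likelihood, robust, TMM, filterByExpr with a minimum count of 10) over all 8 livers in R 4.3.3. P-values were adjusted by Benjamini-Hochberg over all genes tested and called at 0.05. The scripts were tested on simulated data. Depth limits low genes such as Derl3, and intervals and floors (3 counts) cover counting error only. PSC libraries with the same number come from the same preparation by their descriptions, and their deviations from the group means correlated at 0.43, 0.26 and 0.53. Alternatives were DESeq2 1.42.0, other scalings, filters and pseudocounts, a replicate block, a term for livers with over 1000 Xist counts and leaving out each library. Leaving out preparation 3 was chosen after seeing the data.

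The members and lists were chosen with earlier results of these data known. All members are named, with up to 3 called genes of each other list per direction, the target genes, and promoters of the 4 members with the largest log2 fold changes and a motif before the start. Trib3 has its match after the start, so Dnajc3 follows. Protein sequences were not analysed here. Nothing says that livers with a number came from a shared litter or day.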

Additional observations from a re-analysis of the deposited data

How the results depend on the processing

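In PSCs, the 2 members called higher and 2 called lower became 5 and 4 with the preparation as a replicate block, the pairing of these libraries, and 7 and 5 without preparation 3. DESeq2 on the recovered reads called 4 higher and 2 lower. With a log2 fold change over 1 required as well, 1 was higher and 0 lower, where 0.733% and 0.786% of all genes were. Leaving out each library in turn gave 0 to 4 higher and 0 to 2 lower. Over all genes these fits called 15 to 476 higher and 22 to 578 lower, so the loss of calls was not particular to members. Derl3 and Dnajb9 lost their call without DMSO replicate 1 or 2 or Yoda1 replicate 2, as did Dnajc3 and Edem1, which also lost it without Yoda1 replicate 1. Derl3 lost it without Yoda1 replicate 1 as well, and Dnajb9 and Edem1 without DMSO replicate 3. In livers, a term for high Xist gave 1 member higher in WT than in TRPV4-KO and 1 lower in TRPV4-KO than in GSK219, both Asns. Leaving out each liver in turn gave 0 to 2 higher and 0 to 1 lower in WT than in TRPV4-KO. The shares of all genes called also moved with the liver left out, up to 5.02% higher and 3.62% lower without TRPV4-KO replicate 3. A replicate block over livers, which only share a number (correlations of same-numbered livers from -0.48 to 0.58), gave 0 members called in all 3 comparisons, and for WT over TRPV4-KO 1 other folding enzyme and 2 other ISR genes called higher. With that block, Asns went from 4.84 to 3.50 for WT over TRPV4-KO and from 2.34 to 0.78 for WT over GSK219 on the log2 scale, and Derl3 from 1.48 to 0.83 for WT over TRPV4-KO. The cause of these shifts was not tested. The log2 fold change of Asns without WT replicate 2 was -0.09 for WT over TRPV4-KO and -2.60 for WT over GSK219. That of Derl3 for WT over GSK219 was -0.14, 1.12 without GSK219 replicate 1 and -1.17 without WT replicate 1. Over the scaling, filter, block, Xist and tool alternatives and, in livers, a fit of only the 2 groups compared, a log2 fold change of a member changed sign in 1 of 224 values in PSCs and in 6, 8 and 4 of 192 in the liver comparisons, and the largest of these was 0.09 in size as reported. None of these scaled PSC values by read total alone. By read total, as in the RPKM, mean levels of Eif2ak3, Dnajb11, Manf, Creld2, Canx, Pdia4 and Derl1 were higher with Yoda1. Their fitted values were below 0. Canx, for example, was at 176 RPKM with DMSO and 190 with Yoda1. The signs of these small values thus depend on the scaling. Depth limits Derl3 in PSCs with DMSO (2 to 11 reads) and Asns in the livers other than WT replicate 2 (0 to 135 counts).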
